A study of Xenopus laevis with 6 samples.

Results

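The knockdown of ERK3 in activin/RA-treated animal caps of Xenopus laevis was read on 3 of the 6 arrays of the series, which were chosen by their labels. These arrays held caps that had received ERK3 MO1/2 (a mixture of 40 ng each of MO1 and MO2), ERK3 MO3 (80 ng) or control MO (80 ng), and all of them were cultured with activin plus retinoic acid (RA). MO stands for morpholino, an antisense oligonucleotide that blocks the translation or splicing of a chosen transcript. Embryos received the MO at the 4-cell stage on the animal side, caps were cut at stage 9, and RNA was taken at stage 15. The remaining 3 arrays carried untreated caps with the same MOs and are used here for the spread between arrays and to set a change beside the same change without activin/RA. Each group was 1 array from 1 experiment, and the controls carried an MO too.

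ERK3, the product of mapk6, belongs to the atypical MAP kinases. It shares the kinase fold of ERK1 and ERK2 but lacks their dual phosphorylation motif, and it binds and activates the protein kinase MK5. An animal cap is the ectodermal roof of the blastula. It forms epidermis when left alone, activin turns it towards mesoderm and endoderm through Nodal-type signalling, and retinoic acid gives the induced tissue posterior and pronephric character. The series title places ERK3 in the making of epithelial architecture, and the arrays ask which transcripts of induced caps depended on it. No probe set was annotated as mapk6, and ERK3 transcript levels were therefore not analysed here.

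The tissue labels were set against marker genes. Summed linear signals of the mesoderm markers (tbxt, eomes, wnt8a, mix1, msgn1 and tbx6, 10 gene copies) were 1770 with ERK3 MO1/2 and 1070 with ERK3 MO3, against 1470 with control MO, while untreated caps had 94.7 to 126. For 13 copies of epidermal markers the sums were 5802 with MO1/2 and 6392 with MO3, against 10178 with control MO, so the activin/RA caps carried mesoderm and epidermal transcripts together. In untreated caps the epidermal sums were 4355 with MO1/2 and 5545 with MO3, against 11805 with control MO. Neural markers (7 copies) summed to 3112 with MO1/2 and 3416 with MO3, against 2969 with control MO, and to 3337 or more in untreated caps. Among them just the sox3 copies were higher with both reagents, whereas elavl3.L (-1.57 with MO1/2 and -1.37 with MO3) and tubb2b.S (-0.83 and -0.13) were lower with both. Muscle markers (6 copies) summed to 137 with MO1/2 and 143 with MO3, against 107 with control MO. Of these copies myod1.L alone was higher with both reagents (6.01 with MO1/2 and 5.96 with MO3, against 4.68 with control MO). The median change of the muscle copies was -0.06. Endoderm markers (8 copies) summed to 560 with MO1/2 and 640 with MO3, against 917 with control MO. Of the pronephric markers, lhx1.L was high (log2 9.25 with MO1/2 and 8.65 with MO3, against 8.91 with control MO), whereas pax8.L (2.91 with MO1/2 and 2.85 with MO3, against 2.72 with control MO) and wt1.L (1.79 with MO1/2 and 2.24 with MO3, against 1.96 with control MO) lay at the low end of the scale on all 3 arrays. The 4 copies of blood and endothelium markers reached at most 3.25, and the cement gland markers at most 4.73. Neural crest markers (5 copies) summed to 141 with MO1/2 and 96.6 with MO3, against 72 with control MO, with foxd3.L at 5.47 with MO1/2 and 4.29 with MO3, against 3.35 with control MO. Only the foxd3 copies were higher with both reagents. snai2.S (4.09 with MO1/2 and 4.51 with MO3, against 5.03 with control MO) and sox10.L, at low signal, were lower with both. snai2.L was higher with MO3 alone (2.89 with MO1/2 and 4.47 with MO3, against 2.98 with control MO). The part of these shifts in the results below was not tested. In bulk caps, fewer cells of a type and less RNA per cell cannot be told apart.

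More probe sets were lower than higher with the ERK3 MOs. With both reagents 294 of 32539 probe sets (0.904%) were at least 2-fold lower than with control MO, and 51 (0.157%) were at least 2-fold higher (1.06% in either direction). These are called lowered and raised here, by their fold alone and with no test. At this fold 1 probe set, for cenps.L, moved in opposite directions with the reagents. MO1/2 alone lowered 537 and raised 246 probe sets 2-fold, and MO3 alone lowered 470 and raised 129. Both changes were measured against the same control array, so a control value that is itself off shifts both of them. The lowered set had a median log2 change of -1.40 with MO1/2 and -1.47 with MO3, and 31 of its members were at least 4-fold lower with both. In the raised set the medians were 1.26 and 1.21, and rpn2.S alone was 4-fold higher with both. The lowered probe sets with a symbol stood for 135 genes and the raised ones for 27. On at least 1 activin/RA array 202 of the lowered and 43 of the raised probe sets lay above the overall median signal, and the rest were weak on all 3.

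**Figure D1:**
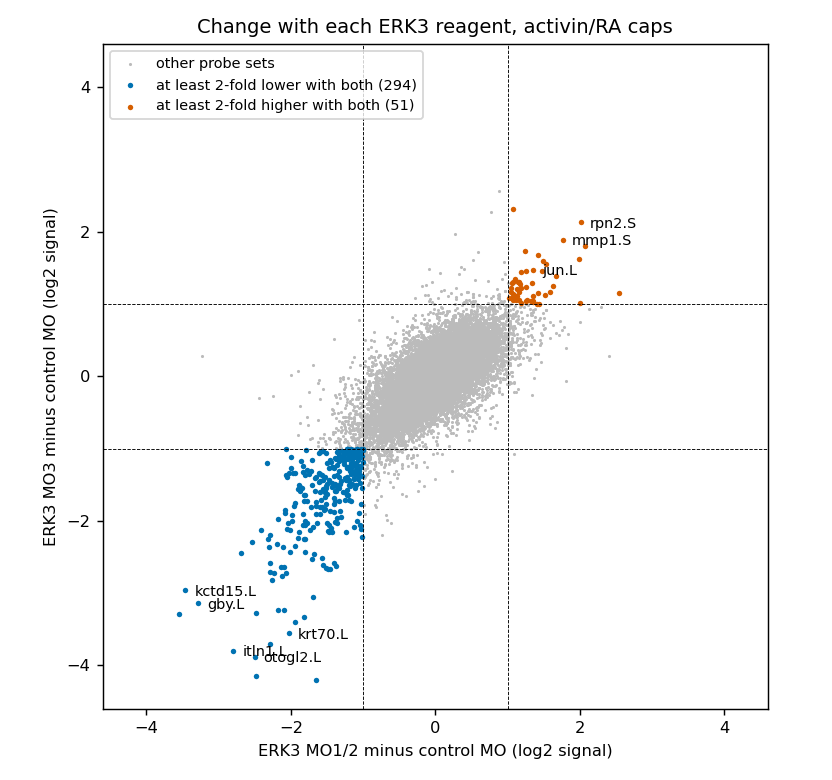
Each point is a probe set, with its log2 change with ERK3 MO1/2 against control MO on the x axis and with ERK3 MO3 against control MO on the y axis, in activin/RA caps. Dashed lines mark 2-fold, and the 294 lowered probe sets extend farther from 0 than the 51 raised ones.

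In limma's moderated test, which takes the reagents of a culture as replicates, 41 probe sets fell (0.126% of those tested) and 4 rose (0.0123%), all of them also 2-fold with both reagents, with adjusted p between 0.0272 and 0.0493. With a single array per injected group, such p-values cover just the spread between the reagents within a culture. The control arrays add nothing to that spread, and part of it may be technical. Without the ERK3 MO3 array of activin/RA caps 0 passed, without the MO1/2 array 27, and 4 passed with the 3 activin/RA arrays alone. Most of these 27 and part of these 4 were not among the 45. After a filter on low signal 0 passed limma (smallest adjusted p 0.0986, 2244 at an unadjusted p under 0.05), and 203 passed when 16 was added to the signal before log2. With the injected MO as a block across both cultures, a fit added after seeing the data, 939 were lower and 460 higher at that threshold, the 45 among them. That fit has 1 residual degree of freedom and leaves any difference between the reagents that the cultures share out of the error. Therefore the per-array values are given with each gene, and rose or fell is used of the 45 probe sets that passed.

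The values around the 2-fold line were close together. Among genes with an informative symbol, parn.L (1.18 with MO1/2 and 1.02 with MO3) and atf3.L (1.04 and 1.23) were the last inside on the higher side, and mab21l2.L (1.0 and 1.3) was the first outside. On the lower side hao2.L (-1.17 and -1.0) and pik3ip1.L (-1.22 and -1.0) were inside, and cdx1.S (-1.15 and -1.0) was just outside, so after rounding the caudal gene cdx1.S has the same smaller change as genes that were counted.

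Genes were ranked by the smaller of the changes with the reagents, among those with an informative symbol and a signal above the array median on at least 1 activin/RA array. This left out XB5949052.L, which fell furthest of all genes with any symbol (2.86 with MO1/2 and 3.11 with MO3, against 6.4 with control MO, limma adjusted p = 0.0272), and nxpe2.L, whose control signal was 4.99. Of the 15 leading decreases 7 were in genes that encode keratins, an adhesion molecule or products of mucus-secreting cells. The log2 signal of itln1.L, which encodes a lectin secreted by cells of the larval skin, was 3.62 with ERK3 MO1/2 and 2.62 with ERK3 MO3, against 6.42 with control MO. It fell (log2 change of the mean -3.30 ± 0.39 SE, limma adjusted p = 0.0421), and MO3 lowered it 2-fold further than MO1/2. The mucus glycoprotein gene otogl2.L stood at 6.23 with MO1/2 and 4.86 with MO3, against 8.73 with control MO, and its other probe set at 5.53 with MO1/2 and 4.12 with MO3, against 7.82 with control MO (limma adjusted p = 0.0881 and 0.103). Both ERK3 arrays lay below the control, and otogl2.L was again lower with MO3. The fucosyltransferase gene fut6.S fell (3.21 with MO1/2 and 2.72 with MO3, against 5.44 with control MO, log2 change -2.47 ± 0.25 SE, limma adjusted p = 0.0421), while the other probe set of fut6.S had a mean change of 0.08. In untreated caps itln1.L was low on every array (2.59 with MO1/2 and 2.98 with MO3, against 3.34 with control MO). fut6.S and otogl2.L stood at 3.28 and 5.97 in untreated control caps.

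The keratin genes among these 15, whose products form the intermediate filaments of epithelial cells, were lower at high signal. krt7.L had 7.73 with MO1/2 and 7.31 with MO3, against 10.02 with control MO, on its probe set with the largest shared change. Of its 5 probe sets, which ranged from -2.50 to -0.54 in mean change, another fell (4.02 with MO1/2 and 3.69 with MO3, against 5.92 with control MO, -2.07 ± 0.23 SE, limma adjusted p = 0.0421). krt12.4.S stood at 7.54 with MO1/2 and 6.98 with MO3, against 9.63 with control MO, and krt70.L at 7.40 with MO1/2 and 5.87 with MO3, against 9.42 with control MO (limma adjusted p = 0.148 and 0.254). The reagents differed by 1.53 in krt70.L, the 7.40 of MO1/2 lying nearer to the control. The other copy, krt70.S, had a stronger signal and was short of 2-fold with both reagents (11.34 with MO1/2 and 11.67 with MO3, against 12.07 with control MO). The E-cadherin gene cdh1.S, the main cadherin of epidermis, had 4.08 with both reagents, against 6.11 with control MO (-2.03 ± 0.43 SE, limma adjusted p = 0.169).

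The other leading decreases were regulators, signalling genes and a transporter. gby.L fell and had the largest shared change of these 15 (3.1 with MO1/2 and 3.24 with MO3, against 6.38 with control MO, -3.21 ± 0.30 SE, limma adjusted p = 0.0342). kctd15.L, an inhibitor of AP-2 transcription factors known from zebrafish, fell likewise (3.09 with MO1/2 and 3.59 with MO3, against 6.55 with control MO, -3.21 ± 0.39 SE, limma adjusted p = 0.0421). For both genes the ERK3 arrays lay close together and far below the control. The annexin A2 partner gene s100a10.S (3.46 with MO1/2 and 3.53 with MO3, against 5.78 with control MO) and syt1.L (4.30 with MO1/2 and 4.16 with MO3, against 6.49 with control MO), a calcium sensor of vesicle release, also fell (limma adjusted p = 0.0342 and 0.0421). The pendrin-related anion exchanger gene slc26a4l.L (4.82 with MO1/2 and 4.77 with MO3, against 7.13 with control MO), the kinase gene dapk2.L (5.28 with MO1/2 and 4.73 with MO3, against 7.55 with control MO) and the G protein beta subunit gene gnb3.L (5.34 with MO1/2 and 4.68 with MO3, against 7.40 with control MO) did not pass (limma adjusted p = 0.0598, 0.0909 and 0.0721). The other probe set of dapk2.L had a mean change of 0.15. Further genes that fell were gdpd1.L (-1.95), tmem72.L (-1.75, on 1 of its 2 probe sets), nr6a1.S (-1.60), which encodes an orphan nuclear receptor of the early embryo, and, from low control signals, the receptor gene p2ry11.S (-1.65), the lipase gene liph.L (-1.56) and the Wnt ligand gene wnt8b.S (-1.50), with limma adjusted p between 0.0421 and 0.0463. The 4 probe sets of nr6a1.S disagreed, from -1.60 to -0.03, and wnt8b.S had only 2.70 with MO1/2 and 2.72 with MO3, against 4.2 with control MO.

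**Figure D2:**
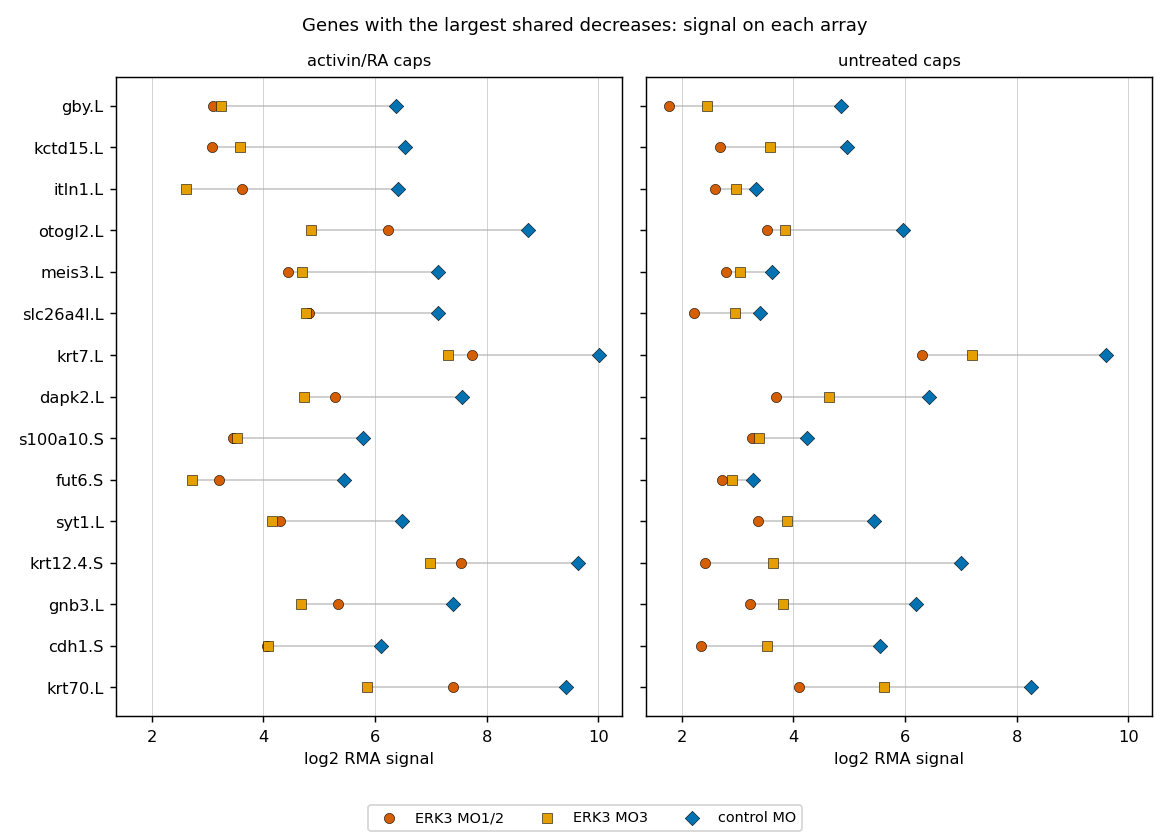
Each line is a gene and each symbol an array, with the log2 RMA signal on the x axis, in activin/RA caps on the left and untreated caps on the right. In activin/RA caps both ERK3 MO arrays lie at least 2.02 log2 units below the control MO array for all 15 genes.

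Part of the epidermal genes were lower. Of 34 measured copies of keratin and epidermal structural genes 8 were 2-fold lower with both reagents and 0 higher (23.5% lower, against 1.02% of all genes at 1 probe set each), with 1 passing limma (of all genes 0.124% fell in limma and 0.0265% rose). Lists and members were chosen with earlier results of these data known, so a share above that of all genes is not a test. In each list a gene copy was counted by its probe set of highest mean signal in activin/RA caps. Of 940 copies on the lists 7 missed the 2-fold rule by that probe set and met it by another, 6 of them lowered (cdx4.L, cdh2.L, gata6.S, pax3.L, cyp26a1.S and cyp26c1.S) and 1 raised (pabpn1l.S). The median change of the keratin list was -0.10, beside 0.03 over all genes, so the middle of the list lay close to the control. krt12.4.L (7.28 with MO1/2 and 6.07 with MO3, against 8.73 with control MO), krt12.5.S (7.91 with MO1/2 and 7.51 with MO3, against 9.85 with control MO) and the plakin genes of the cornified envelope evpl.L (6.17 with MO1/2 and 6.17 with MO3, against 7.52 with control MO) and ppl.L (5.88 with MO1/2 and 5.59 with MO3, against 7.01 with control MO) were among the 8. The 4 probe sets of ppl.L had mean changes from -1.48 to -1.27. In the secretory, mucus and gland list 4 of 19 copies were lower and 0 higher (median 0.01, beside 0.03), namely itln1.L, otogl2.L, fut6.S and the cement gland gene ag1.L (3.58 with MO1/2 and 3.25 with MO3, against 4.73 with control MO).

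Among transcription factors and regulators of epidermis 6 of 50 copies were lower and 0 higher, with a median of -0.33. The homeobox gene dlx3, a BMP-dependent regulator of ectoderm, was lower in both subgenome copies, with dlx3.L at 5.80 with MO1/2 and 5.65 with MO3, against 7.44 with control MO, and dlx3.S at 6.18 with MO1/2 and 6.52 with MO3, against 8.06 with control MO. The BMP-responsive homeobox genes msx1.L (6.58 with MO1/2 and 6.72 with MO3, against 7.77 with control MO) and msx1.S (6.17 with MO1/2 and 6.15 with MO3, against 7.22 with control MO) were lower by close amounts. These were also the only 2 of 49 BMP pathway copies that were 2-fold lower, and 0 were higher. The median of that list was -0.24 for the mean of the reagents, with -0.17 for MO1/2 and 0.02 for MO3. tp63.S, a regulator of basal epidermis, was counted as lower from 2.99 with control MO, near the low end of the scale. No member but kctd15.L passed limma. Among the epidermal markers used above, the grhl3 and tfap2a copies and gata3.S were lower with both reagents but short of 2-fold. Their mean changes ran from -0.65 in gata3.S to -0.06 in grhl3.S. In untreated caps gata3.S (-3.28 with MO1/2 and -2.98 with MO3) and both tfap2a copies were 2-fold lower. The grhl3 copies were short of 2-fold with MO3 there. Ionocyte genes (0 of 16, median -0.21) and multiciliated cell genes (0 of 30, median -0.10) had no copy that differed 2-fold with both reagents. The ionocyte list did not hold the pendrin-related slc26a4l.L, which was lowered. Lists of this size hold few or none at the shares of all genes, 1.02% lower and 0.203% higher.

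Several genes of posterior patterning, which Wnt and retinoic acid signals switch on in the neurula, were lower with both reagents. meis3.L, a TALE homeobox partner of Hox proteins needed for hindbrain formation in Xenopus, fell (4.45 with MO1/2 and 4.69 with MO3, against 7.13 with control MO, -2.56 ± 0.23 SE, limma adjusted p = 0.0342). Its copy meis3.S stood at 5.01 with MO1/2 and 4.75 with MO3, against 6.90 with control MO (limma adjusted p = 0.0674). hoxb4.S had 5.85 with MO1/2 and 4.90 with MO3, against 7.42 with control MO, and hoxc5.L 5.61 with MO1/2 and 5.4 with MO3, against 6.71 with control MO. All 4 lay below the control on both ERK3 arrays, and hoxb4.S lay lower with MO3 than with MO1/2. In untreated control caps meis3.L stood at 3.62, meis3.S at 5.13, hoxb4.S at 3.08 and hoxc5.L at 4.11. Of the 32 copies of Hox and TALE genes measured 4 were 2-fold lower and 0 higher, with a median of -0.22, while 11 reached the array median of 5.1 on any activin/RA array. At any size 23 copies were lower and 6 higher with both reagents, and hoxa3.S had 5.49 with MO1/2 and 5.77 with MO3, against 5.54 with control MO.

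In the list of Wnt targets and antagonists 5 of 45 copies were 2-fold lower and 0 higher, 31 were lower and 8 higher at any size with both reagents, and the median of -0.36 was the lowest of the 28 lists. Across all genes 1.02% were 2-fold lower and 0.203% 2-fold higher, and at any size 33.3% were lower and 40.7% higher with both reagents. The homeobox genes gbx2.1.S (6.01 with MO1/2 and 5.91 with MO3, against 7.72 with control MO) and gbx2.2.L (7.22 with MO1/2 and 7.14 with MO3, against 8.75 with control MO), which set the midbrain-hindbrain boundary, missed the limma threshold (adjusted p = 0.0598 and 0.0674). The zinc finger target sp5.L had 6.06 with MO1/2 and 6.03 with MO3, against 7.5 with control MO. The Frizzled receptor gene fzd10 was lower in both copies, with fzd10.L at 4.99 with MO1/2 and 5.22 with MO3, against 6.35 with control MO, and fzd10.S at 6.84 with MO1/2 and 6.56 with MO3, against 8.24 with control MO. Just short of the 2-fold rule lay the caudal genes cdx4.L (7.62 with MO1/2 and 6.82 with MO3, against 8.60 with control MO) and cdx2.L (6.94 with MO1/2 and 6.44 with MO3, against 7.76 with control MO) and the ligand gene wnt8a.L (7.60 with MO1/2 and 7.06 with MO3, against 8.50 with control MO). In these 3 genes the MO1/2 array lay between the MO3 array and the control. Another probe set of cdx4.L was lowered (6.77 with MO1/2 and 6.56 with MO3, against 8.15 with control MO).

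Of 29 retinoic acid pathway copies 2 were 2-fold lower, 1 was higher and 17 were lower at any size with both reagents (median -0.22). Over all genes 1.02% were 2-fold lower, 0.203% were 2-fold higher and 33.3% were lower at any size. crabp2.L, a carrier of retinoic acid to its nuclear receptor, was lower (5.48 with MO1/2 and 5.77 with MO3, against 7.35 with control MO), although its 5 probe sets ranged from -1.73 to 0.11 in mean change. The repressor gene znf703.S, a retinoic acid target, was lower too (7.99 with MO1/2 and 7.79 with MO3, against 9.07 with control MO). Of the retinoid enzymes, cyp26a1.L, which degrades retinoic acid, stood at 10.41 with MO1/2 and 9.91 with MO3, against 10.73 with control MO, and aldh1a2.L, which makes it, at 10.34 with MO1/2 and 10.06 with MO3, against 10.09 with control MO. The probe sets of cyp26a1.S disagreed, with the stronger at 11.19 with MO1/2 and 10.92 with MO3, against 11.08 with control MO, and the weaker lowered (6.4 with MO1/2 and 6.34 with MO3, against 7.54 with control MO). cyp26c1.S, a related enzyme, was lower at low signal (3.26 with MO1/2 and 3.69 with MO3, against 4.59 with control MO), and 2-fold lower on a weaker probe set. The retinol carrier gene rbp4.L was higher (10.14 with both reagents, against 8.97 with control MO, limma adjusted p = 0.123). Its other probe set gave a mean change of 1.11.

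**Figure D3:**
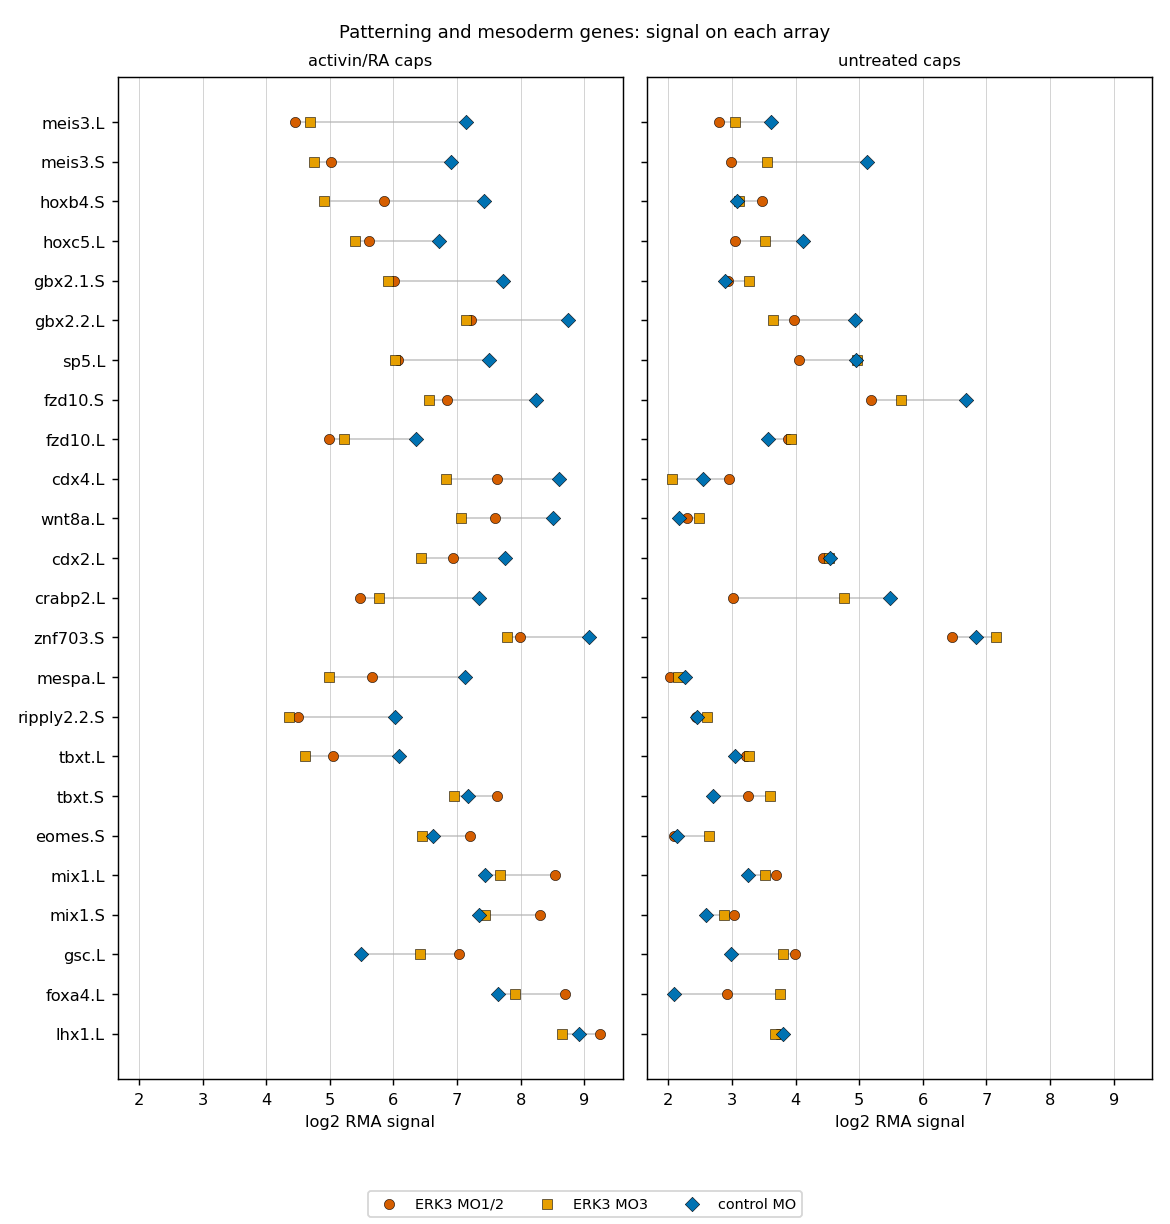
Log2 RMA signal on each array (x axis) for 24 patterning and mesoderm genes, picked after their values were seen, in activin/RA caps on the left and untreated caps on the right. From meis3.L down to tbxt.L the control MO array lies highest in activin/RA caps, whereas tbxt.S and eomes.S lie above it with MO1/2 and below it with MO3.

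Early mesoderm genes differed in both directions. Of 46 copies 4 were 2-fold lower (8.7%, against 1.02% of all genes) and 0 higher (0.203% of all genes). The median was 0.06 for the mean of the reagents, with 0.23 for MO1/2 and -0.16 for MO3. The segmentation gene mespa.L had 5.66 with MO1/2 and 4.98 with MO3, against 7.13 with control MO, and the Nodal co-receptor gene tdgf1.2.S had 3.31 with MO1/2 and 3.56 with MO3, against 4.96 with control MO. The peptide ligand gene apln.L stood at 4.76 with MO1/2 and 5.3 with MO3, against 6.47 with control MO. In untreated caps apln.L was lower too (2.91 with MO1/2 and 4.46 with MO3, against 5.94 with control MO). By contrast mespa.L, tdgf1.2.S and tbxt.L stood at 2.26, 1.87 and 3.05 in untreated control caps. The brachyury copies differed, with tbxt.L at 5.05 with MO1/2 and 4.62 with MO3, against 6.09 with control MO, and tbxt.S at 7.63 with MO1/2 and 6.96 with MO3, against 7.17 with control MO. Only tbxt.L lay below the control on both ERK3 arrays. The mesendoderm genes eomes.S (7.21 with MO1/2 and 6.45 with MO3, against 6.62 with control MO), mix1.L (8.53 with MO1/2 and 7.68 with MO3, against 7.44 with control MO) and mix1.S (8.30 with MO1/2 and 7.44 with MO3, against 7.34 with control MO) were higher with MO1/2 than with MO3. The mix1 copies lay above the control with both reagents, whereas eomes.S lay below it with MO3. The organizer gene gsc.L was higher (7.02 with MO1/2 and 6.41 with MO3, against 5.49 with control MO) but short of 2-fold with MO3, and its copy gsc.S hardly differed (5.68 with MO1/2 and 5.68 with MO3, against 5.46 with control MO).

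In the paraxial and myogenic list 3 of 48 copies were lower and 1 was higher (median -0.11). Over all genes 1.02% were lower and 0.203% higher, so a count of 1 in this list or those below tells little. ripply2.2.S, a regulator of somite boundaries, had 4.50 with MO1/2 and 4.36 with MO3, against 6.03 with control MO (limma adjusted p = 0.0577). The myogenic regulator gene myod1.L was higher (6.01 with MO1/2 and 5.96 with MO3, against 4.68 with control MO), but its level in untreated control caps was higher still, at 6.81. The other copy, myod1.S, hardly differed (5.22 with MO1/2 and 5.23 with MO3, against 5.33 with control MO). In the pronephros list 1 of 41 copies was 2-fold lower, tmem72.L, and 0 were higher (median -0.03). On its stronger probe set, not the 1 that passed limma, tmem72.L was lower in untreated caps too (3.16 with MO1/2 and 3.93 with MO3, against 5.65 with control MO). The pronephric regulator osr1.L had 7.04 with both reagents, against 7.18 with control MO. Of 47 lateral plate, blood and endothelial copies 4 were lower and 0 higher (median -0.09), among them gata6.L (6.97 with MO1/2 and 6.88 with MO3, against 8.05 with control MO), the myeloid gene spib.S (5.36 with MO1/2 and 5.89 with MO3, against 6.91 with control MO) and flt1.L (2.81 with MO1/2 and 2.75 with MO3, against 4.14 with control MO). In untreated caps spib.S was lower too (4.48 with MO1/2 and 5.68 with MO3, against 7.06 with control MO), whereas gata6.L and flt1.L stood at 4.09 and 2.70 in untreated control caps. gata6.L was also the 1 lowered copy of 32 endoderm copies (median -0.02), since the stronger probe set of gata6.S missed the 2-fold rule with MO3 (6.60 with MO1/2 and 6.91 with MO3, against 7.66 with control MO), and of 36 organizer copies only tbxt.L was lower (median 0.06, 0 higher).

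Some neural genes were 2-fold lower. Of 58 neural plate copies 4 were lower (6.9%, against 1.02% of all genes) and 0 higher, with a median of -0.02. They were syt1.L, gbx2.2.L, the neuronal RNA-binding gene elavl3.L (3.15 with MO1/2 and 3.35 with MO3, against 4.72 with control MO) and the Notch target hes5.1.L (6.23 with MO1/2 and 6.25 with MO3, against 7.38 with control MO). Of 34 neural crest copies 3 were lower (8.82%, median -0.11), both msx1 copies and rpe65.S (5.75 with MO1/2 and 6.08 with MO3, against 7.65 with control MO), which encodes a retinoid isomerase. In untreated caps rpe65.S was lower too (4.09 with MO1/2 and 5.11 with MO3, against 6.92 with control MO), and the msx1 copies were lower but short of 2-fold. The crest regulator foxd3.S was higher with MO1/2 than with MO3 (6.11 with MO1/2 and 4.85 with MO3, against 4.1 with control MO) and missed the 2-fold rule with MO3.

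The series title names epithelial architecture, to which junction and polarity genes belong. Of 25 adherens junction and cadherin copies cdh1.S and the adhesion gene nectin1.L (3.76 with MO1/2 and 3.83 with MO3, against 4.87 with control MO) were lower and 0 were higher (median -0.00). The N-cadherin gene cdh2.L had 5.65 with MO1/2 and 5.36 with MO3, against 6.22 with control MO, on its strongest probe set, and its probe sets disagreed, with 2 of weak signal lowered (the first at 3.50 with MO1/2 and 2.90 with MO3, against 4.86 with control MO). Outside the list, the cadherin gene cdh26.S was lowered (6.15 with MO1/2 and 5.90 with MO3, against 7.80 with control MO, limma adjusted p = 0.0598). The maternal cadherin gene cdh3.L (11.21 with MO1/2 and 11.28 with MO3, against 11.20 with control MO) and beta-catenin ctnnb1.S (11.53 with MO1/2 and 11.46 with MO3, against 11.50 with control MO) lay close to the control. In the desmosome and cornified envelope list 2 of 15 copies were lower, evpl.L and ppl.L, and dsc3.S, which encodes a desmosomal cadherin, was higher (5.46 with both, against 4.36 with control MO, limma adjusted p = 0.149). Of 25 tight junction copies (median -0.01) and of 28 polarity copies (median 0.07) 0 differed 2-fold with both reagents. Across all genes 1.02% were lower and 0.203% higher, so a count of 0 in lists of this size tells little. The tight junction genes cldn6.1.S (10.70 with MO1/2 and 10.93 with MO3, against 10.78 with control MO) and ocln.S (7.75 with MO1/2 and 7.98 with MO3, against 8.0 with control MO) and the polarity gene prkci.L (5.19 with MO1/2 and 5.32 with MO3, against 5.26 with control MO) lay close to the control. In the matrix and integrin list the basement membrane collagen gene col18a1.L was lower (4.78 with MO1/2 and 4.66 with MO3, against 6.28 with control MO) and mmp1.S higher, of 42 copies.

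**Figure D4:**
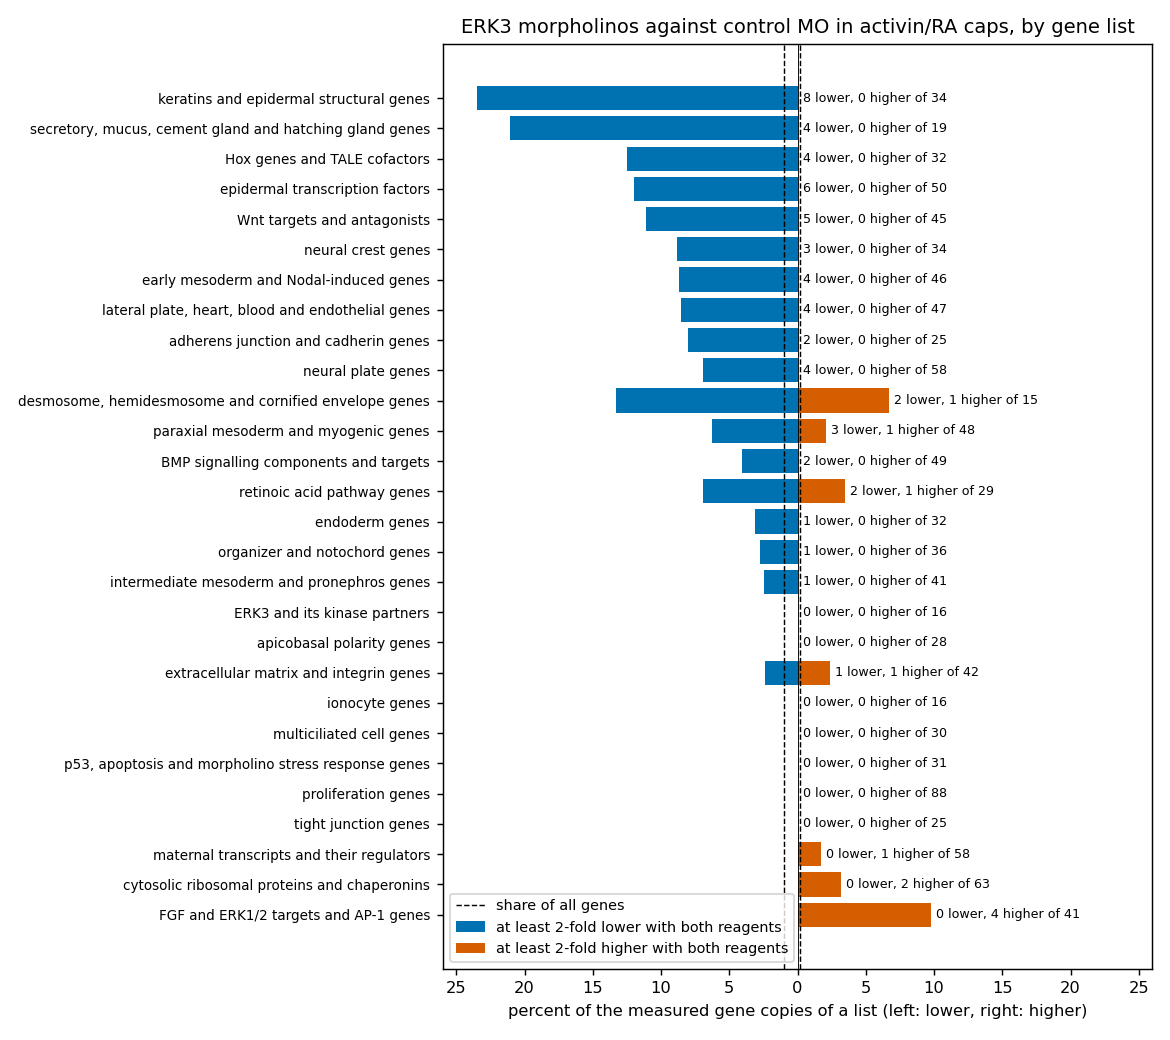
For each gene list, bars give the percent of its measured gene copies that were at least 2-fold lower (left) or higher (right) with both ERK3 reagents than with control MO in activin/RA caps, and dashed lines the shares of all genes (1.02% lower and 0.203% higher). Keratin and secretory lists have the longest bars on the left, and the FGF and AP-1 list has the longest on the right. The lists were chosen with earlier results of these data known, so the bars are not a test.

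The 15 leading increases, ranked in the same way, were of several kinds. The kinase gene tbk1.L, with a shared change of 1.39, was left out of them for its low signal. rpn2.S, a subunit of the oligosaccharyltransferase of the endoplasmic reticulum, rose (9.15 with MO1/2 and 9.27 with MO3, against 7.14 with control MO, 2.07 ± 0.16 SE, limma adjusted p = 0.0303). The collagenase gene mmp1.S rose (6.78 with MO1/2 and 6.90 with MO3, against 5.01 with control MO, 1.83 ± 0.21 SE, limma adjusted p = 0.0421), and so did the chaperonin subunit gene cct4.S (9.11 with MO1/2 and 9.08 with MO3, against 7.85 with control MO, 1.25 ± 0.15 SE, limma adjusted p = 0.0421). In these 3 genes the ERK3 arrays nearly coincided. The rest of the 15 did not pass, with limma adjusted p up to 0.320. They included the maternal RNA regulators pabpn1l.S (5.59 with MO1/2 and 5.57 with MO3, against 4.11 with control MO), a poly(A)-binding protein gene of oocytes, and btg4.L (7.29 with MO1/2 and 6.93 with MO3, against 5.67 with control MO), an adaptor for deadenylation. The replication clamp loader gene rfc5.L had 7.13 with MO1/2 and 7.62 with MO3, against 5.89 with control MO. The cytokine gene il1b.S had 5.04 with MO1/2 and 5.14 with MO3, against 3.86 with control MO, and acod1lb.L, of the immune-responsive gene family that makes itaconate, had 8.56 with MO1/2 and 8.80 with MO3, against 7.46 with control MO. The 3 probe sets of acod1lb.L ranged from 0.14 to 1.23. The phosphatase inhibitor gene ppp1r14a.L (8.39 with MO1/2 and 8.38 with MO3, against 7.26 with control MO) and tptep2-csnk1e.L (8.28 with MO1/2 and 8.33 with MO3, against 7.2 with control MO) were higher by close amounts with both reagents. The 4 probe sets of ppp1r14a.L ranged from 0.61 to 1.12 in mean change. On all but the one shown, the change was smaller with MO3 than with MO1/2 and short of 2-fold with MO3.

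**Figure D5:**
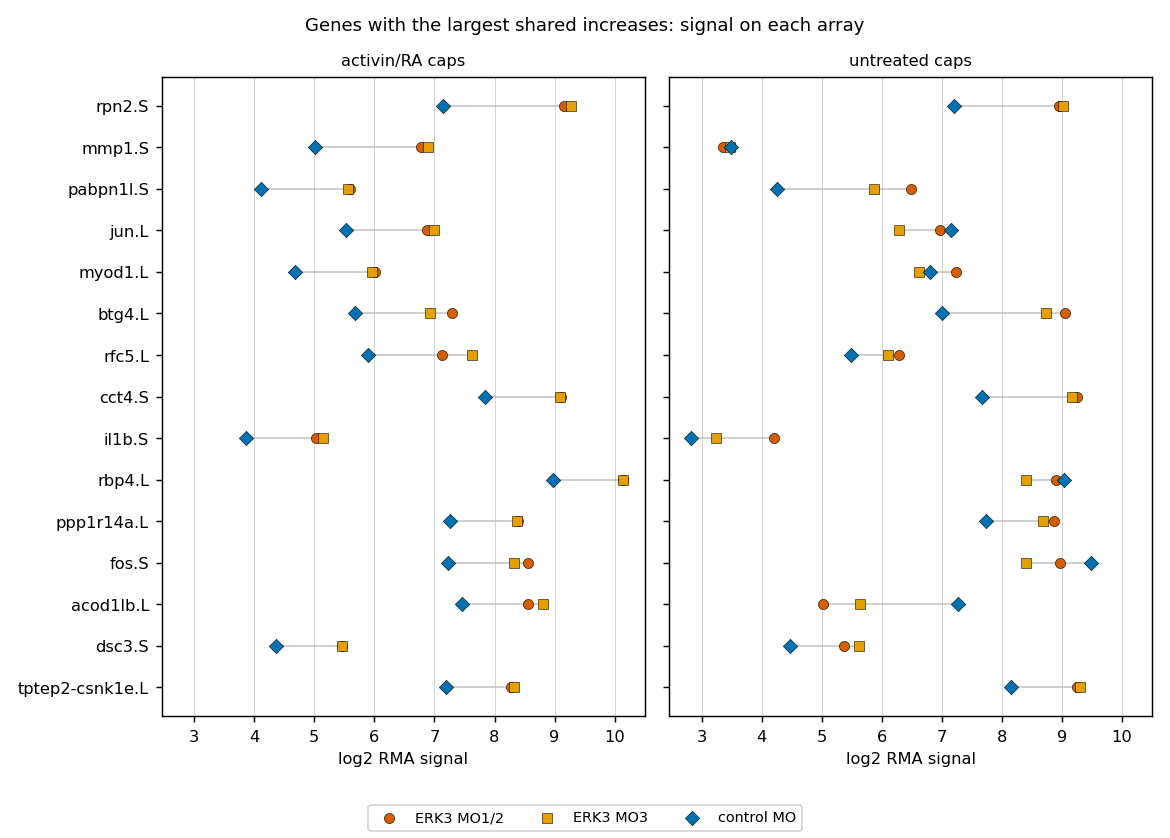
Each line is a gene and each symbol an array, with the log2 RMA signal on the x axis, in activin/RA caps on the left and untreated caps on the right. In activin/RA caps both ERK3 MO arrays lie at least 1.09 above the control MO array for all 15 genes, while in untreated caps the control lies above both of them for genes that include jun.L, fos.S and acod1lb.L.

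AP-1 genes, the immediate early factors downstream of ERK1/2 and stress kinases, were higher in several members. jun.L had 6.87 with MO1/2 and 6.99 with MO3, against 5.52 with control MO, fos.S 8.56 with MO1/2 and 8.33 with MO3, against 7.22 with control MO, and atf3.L 7.23 with MO1/2 and 7.42 with MO3, against 6.19 with control MO. Their log2 changes were 1.41 ± 0.29, 1.23 ± 0.25 and 1.13 ± 0.28 SE, and none passed limma (adjusted p = 0.159, 0.152 and 0.229). junb.S (5.63 with MO1/2 and 5.98 with MO3, against 4.78 with control MO) and jund.S (7.90 with MO1/2 and 8.1 with MO3, against 7.02 with control MO) lay just under the 2-fold rule. Of 41 copies in the list that joins FGF and ERK1/2 targets to AP-1 genes 4 were higher and 0 lower (9.76% higher, against 0.203% of all genes), 22 were higher at any size with both reagents (40.7% of all genes were), and the median was 0.22. mmp1.S, whose promoter AP-1 is known to bind in mammals, was the fourth. This list was chosen with earlier results of these data known, so its share beside all genes is not a test. The feedback inhibitors of FGF signalling stood near the control, with dusp6.S at 8.59 with MO1/2 and 8.41 with MO3, against 8.75 with control MO, and spry2.L at 6.33 with MO1/2 and 5.84 with MO3, against 5.98 with control MO. In untreated control caps jun.L (7.15), fos.S (9.48) and atf3.L (7.37) were higher than in activin/RA control caps, and the activin/RA control array had the lowest value of the 6 arrays for each.

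Lists for other processes held few changes. Maternal transcripts had 1 of 58 copies higher (btg4.L, with pabpn1l.S missing the rule on its stronger probe set) and 36 higher at any size with both reagents against 6 lower (median 0.16). Over all genes 40.7% were higher and 33.3% lower at any size. Of 63 copies in a list of ribosomal proteins and chaperonins, to which rpn2 had been added, only rpn2.S and cct4.S were higher (median -0.12). Of 88 proliferation copies (median 0.06), of 31 copies of p53 and stress genes (median 0.08) and of 16 copies of ERK3 partner genes (median 0.01) 0 differed 2-fold with both reagents. Beside shares of 1.02% lower and 0.203% higher over all genes, these counts of 0 tell little. The p53 target cdkn1a.L, a marker of MO toxicity, had 6.09 with MO1/2 and 6.74 with MO3, against 6.57 with control MO.

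The size of the change differed between the reagents in a few genes. Of the 294 lowered probe sets 22 differed at least 2-fold between the reagents, and of the 51 raised ones 2 did. Genes lowered further by MO3 included both probe sets of otogl2.L (1.38 and 1.42 apart), krt70.L (1.53), eps8l3.S (1.46), krt12.4.L (1.21) and kitlg.L (1.19). tbc1d24.2.L was lowered further by MO1/2 (4.41 with MO1/2 and 5.54 with MO3, against 6.74 with control MO). socs3.S, an inhibitor of cytokine signalling, was raised further by MO3 from a low control signal (4.07 with MO1/2 and 5.31 with MO3, against 2.99 with control MO). In untreated caps socs3.S was lower with both reagents (3.76 with MO1/2 and 4.19 with MO3, against 7.58 with control MO).

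Both copies of a gene from the long and short subgenomes were compared where probe sets existed for each. Of 57 lowered gene copies with the other copy measured, that copy was lower at any size with both reagents in 46 (80.7%, beside 33.3% of all genes). It was 2-fold lower in 13 (22.8%, beside 1.02% of all genes), and the median was -0.44. A pair with both copies lowered was counted from each side, so these are shares of copies and not of separate genes. Of 10 such raised copies the other copy was higher at any size in 8 (80%, beside 40.7% of all genes) and 2-fold higher in 0 (0.203% of all genes). Copies can share probes, so these are not separate measurements. Counting any probe set of a copy, both copies were lowered for dlx3, fzd10, gata6, hunk, krt12.4, meis3 and msx1.

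The lowered genes were then set beside the same comparison in untreated caps, which has its own control array. Of the 294 probe sets 123 were also 2-fold lower there (41.8% of the 294, and 14.9% of the 825 lowered in untreated caps, which were 2.54% of probe sets), and 0 were 2-fold higher. The median log2 signal of the 294 was 6.02 on the activin/RA control array and 4.74 on the untreated control array. Of the 51 raised probe sets 15 were raised in untreated caps too (29.4%, and 2.25% of the 667 raised there, which were 2.05% of probe sets), and 4 were 2-fold lower there. Of the 15 leading lowered genes 10 were also 2-fold lower in untreated caps, and of the 15 leading raised genes 5 were also 2-fold higher. cct4.S (9.25 with MO1/2 and 9.17 with MO3, against 7.67 with control MO) and rpn2.S (8.94 with MO1/2 and 9.02 with MO3, against 7.21 with control MO) had the same order of arrays in untreated caps. mmp1.S (3.36 with MO1/2 and 3.47 with MO3, against 3.49 with control MO) and gbx2.1.S (2.93 with MO1/2 and 3.27 with MO3, against 2.89 with control MO) lay close to the control there, both at low signal. The test of the difference between the cultures passed for 0 probe sets (0%) in limma (smallest adjusted p = 0.0533, 3061 at an unadjusted p under 0.05). With the injected MO as a block 652 passed as higher and 570 as lower, so the count of such differences depends on how the error is taken. The difference was 1.90 ± 0.30 SE for mmp1.S, 1.92 ± 0.41 for jun.L, 3.17 ± 0.39 for acod1lb.L and -1.97 ± 0.33 for gbx2.1.S, with limma adjusted p of 0.275, 0.318, 0.196 and 0.284.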

How the data were processed

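The deposited values are probe set intensity values of Affymetrix GeneChip Xenopus laevis Genome 2.0 arrays. Per the labels, images were read with GCOS 1.4, the authors applied RMA (robust multi-array averaging), and 250 ng of total RNA was labelled. The intensity values are linear (2.13 to 18347), so log2 was taken with no constant. RMA gives no detection call, and changes of weak genes are compressed. Of 32635 probe sets 96 controls were dropped. By the platform annotation 15495 probe sets had 1 symbol and are the ones named, 279 had several, and 16765 had none. Median log2 signal was 5.08 to 5.14 on the 6 arrays, whose number limits the precision.

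Culture by knockdown was fitted on 6 arrays with limma 3.58.1 under R 4.3.3, using eBayes moderation with a trend on intensity, leaving 2 residual degrees of freedom, with the lone control array of a culture assumed to vary like the others. Benjamini-Hochberg adjustment ran over 32539 probe sets, with calls at 0.05. Without a test, probe sets were counted that changed at least 2-fold in 1 direction with both reagents. The fit was tested on simulated data.

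In 28 gene lists the probe set of highest mean over the activin/RA arrays stood for each gene copy. Named genes include the 15 with the largest shared change per direction, each by its probe set with that change. These 15 have an informative symbol (not LOC, MGC, Xelaev, XB or a clone name). Their signal is over the overall median on 1 or more activin/RA arrays. Named too are genes passing limma, by a probe set that passed, and up to 4 members per list, by the probe set that stood for them there. Other members and genes were picked after their values were seen. Members and lists were chosen with earlier results of these data known. The alternatives were a constant of 16, a filter on low signal, no trend, quantile normalization, other fold thresholds, other arrays, another probe set rule and, added after seeing the data, the injected MO as a block.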

Additional observations from a re-analysis of the deposited data

How the results depend on the processing

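The tested counts depended on the settings. limma's 4 raised and 41 lowered probe sets became 2 and 14 without the intensity trend, 9 and 194 with 16 added before log2, 0 and 0 after the filter on low signal (18393 probe sets), 2 and 2 with the activin/RA arrays alone, 3 and 41 after quantile normalization, and 460 and 939 with the injected MO as a block, which was chosen after seeing the data. With 1 array left out they ranged from 0 to 4 raised and from 0 to 41 lowered. The counts at 2-fold, 51 raised and 294 lowered, became 465 and 1017 at 1.5-fold, and 4 and 70 at 3-fold. They became 21 and 115 with 16 added, and 50 and 204 after the filter on low signal. With 1 reagent left out they ranged from 129 to 246 raised and from 470 to 537 lowered. Differences between cultures numbered 0, but 4 higher and 2 lower passed with 16 added, 652 and 570 with that block, and 0 to 2 higher and 0 lower with 1 array left out. Small list medians changed sign under quantile normalization (ERK3 partners -0.0098, pronephros 0.0319, neural plate 0.0232) or with the mean over a gene's probe sets (endoderm 0.008, pronephros 0.0338). No named gene changed direction in the alternatives run; 87 results for single genes lost and 78 gained a call, 54 of them with that block. The cause of these shifts was not tested. The activin/RA control array could not be left out, since no control remained. The block pairs arrays of the same injected MO, whose difference between MO1/2 and MO3 correlated at 0.30 between the cultures over 32539 probe sets, which are not independent. The labels carry no replicate numbers, so no other pairing could be fitted. Signals near the low end of the scale limit what small changes can show.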

Other observations

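Single raised genes outside the gene lists were picked after their values were seen. The chemokine gene cxcl8.L had a log2 signal of 5.04 with ERK3 MO1/2 and 4.76 with ERK3 MO3, against 3.72 with control MO in activin/RA caps. The kinase gene tbk1.L, which acts in antiviral signalling, had 4.72 with MO1/2 and 4.43 with MO3, against 3.04 with control MO, and the cytokine inhibitor gene socs1.S had 4.61 with MO1/2 and 4.59 with MO3, against 3.53 with control MO. All 3 lay above the control on both ERK3 arrays, and none passed limma (adjusted p = 0.374, 0.0881 and 0.224). In untreated control caps the values were 4.01 for cxcl8.L, 4.36 for tbk1.L and 5.39 for socs1.S, each above that of the activin/RA control array.

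Single lowered genes were picked in the same way. The heparin-binding growth factor gene mdk.S stood at 7.5 with MO1/2 and 7.58 with MO3, against 8.60 with control MO, and the related ptn.L, on 1 of its 2 probe sets, at 8.79 with MO1/2 and 8.92 with MO3, against 10.19 with control MO. The Notch target genes hes5.6.L (2.93 with MO1/2 and 3.07 with MO3, against 4.46 with control MO) and hes5.7.L (3.66 with MO1/2 and 3.87 with MO3, against 4.89 with control MO) were lowered at low signal. The EPS8-related gene eps8l1.L had 5.96 with MO1/2 and 5.88 with MO3, against 6.99 with control MO, and eps8l3.S had 5.68 with MO1/2 and 4.22 with MO3, against 7.62 with control MO. Neither of these passed limma (adjusted p = 0.318 and 0.14), nor did mdk.S (0.199) or ptn.L (0.574), whose SE was large beside its change.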
